A study of Mus musculus with 16 samples.

Results

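The genes of the major histocompatibility complex (MHC) class I and class II antigen presentation pathways were followed in bulk RNA-seq of mouse liver. The members were the protein-coding genes whose symbol begins with H2-, 34 in all, together with 7 partner genes (B2m, Tap1, Tap2, Tapbp, Cd74, Ciita and Nlrc5), making 41 of the 47719 genes with counts. All livers came from male wild-type C57BL/6 mice. The 1-month-old animals (3 to 4 weeks by the labels) and the 6-month-old animals were either untreated, or taken at day 2 or day 6 after 1 intraperitoneal injection of diethylnitrosamine (DEN), a liver carcinogen, at 25 mg/kg by the labels, while the study's methods give this dose in another unit. Each age had 2 untreated control libraries and 3 libraries for each day, 16 in all, and each library pooled the RNA of 3 mice in equal parts, which means that all p-values measure the spread between pools. Both days were compared with the same untreated controls of that age. The labels give no separate controls for day 2 and day 6, and over these days growth in the young animals cannot be told apart from an effect of DEN.

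MHC class I molecules pair a heavy chain with the light chain B2m and show peptides from inside the cell to CD8 T cells. The peptides enter the endoplasmic reticulum through the Tap1 and Tap2 transporter and are loaded with the help of Tapbp (tapasin), and Nlrc5 is the transactivator of these genes. MHC class II molecules are pairs of alpha and beta chains. The invariant chain Cd74 holds them until peptide is loaded with the help of H2-DM, which H2-O binds and restrains. Class II molecules are found mainly on dendritic cells, macrophages and B cells. Ciita is the master transactivator of class II genes and itself binds no DNA but acts through proteins that sit on the X and Y boxes of their promoters. Mice of the C57BL/6 background lack a working H2-Ea gene, and H2-Ea-ps, which is not a member, had 0 counts in all 16 libraries.

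37 of the 41 members lie on chromosome 17, between positions 33915899 and 37483552 of GRCm38. B2m, Cd74, Ciita and Nlrc5 lie on other chromosomes. Promoters, taken from 250 bases before to 50 bases after the start of the gene, were found in the RefSeq table of build GRCm38.p6 for 34 members. The Y box core GATTGG, searched on both strands, was in 16.1% of all 32851 promoters and in 27 of these 34, among them all 8 class II genes with a promoter. The X box core AGCAAC was in 14.8% of all promoters and in 6 members, of which 4 (H2-Eb1, H2-Eb2, H2-Oa and H2-Ob) are class II genes. Both cores together were in 2.64% of all promoters and in 5 members. The kappa B-type motif GGGATTCCC was in 0.353% of all promoters and in 4 members (H2-D1, H2-K1, H2-Q6 and H2-Q7). A match of letters is a description and not a binding site, and the members' promoters share ancestry.

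The promoters of 4 class II genes and of H2-K1 are printed here because these genes carry the comparison of class II with class I that follows. Capitals mark the Y box core on either strand in all 5, the X box core in H2-Eb1 and H2-Eb2, and the kappa B-type motif in H2-K1. They lie at chr17:34305617-34305916 on the plus strand (H2-Eb1), chr17:34325425-34325724 on the plus strand (H2-Eb2), chr17:34287774-34288073 on the minus strand (H2-Aa), chr17:34152941-34153240 on the plus strand (H2-DMb1) and chr17:34000298-34000597 on the minus strand (H2-K1).
H2-Eb1: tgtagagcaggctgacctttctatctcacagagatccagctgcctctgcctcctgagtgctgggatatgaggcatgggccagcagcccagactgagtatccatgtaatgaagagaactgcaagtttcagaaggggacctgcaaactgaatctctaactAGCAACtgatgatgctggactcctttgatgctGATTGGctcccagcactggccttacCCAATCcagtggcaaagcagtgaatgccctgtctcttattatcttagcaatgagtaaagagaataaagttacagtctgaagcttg
H2-Eb2: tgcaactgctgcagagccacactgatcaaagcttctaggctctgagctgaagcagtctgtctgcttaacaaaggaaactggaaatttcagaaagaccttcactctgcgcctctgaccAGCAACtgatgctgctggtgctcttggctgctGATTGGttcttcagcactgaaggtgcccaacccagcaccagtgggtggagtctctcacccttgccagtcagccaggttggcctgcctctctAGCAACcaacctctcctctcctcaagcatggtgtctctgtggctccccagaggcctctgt
H2-Aa: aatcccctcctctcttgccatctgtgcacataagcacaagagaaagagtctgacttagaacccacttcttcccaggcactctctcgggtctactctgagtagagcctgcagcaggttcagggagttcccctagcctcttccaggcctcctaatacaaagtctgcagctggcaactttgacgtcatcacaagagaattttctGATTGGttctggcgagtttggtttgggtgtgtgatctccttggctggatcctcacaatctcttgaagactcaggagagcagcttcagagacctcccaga
H2-DMb1: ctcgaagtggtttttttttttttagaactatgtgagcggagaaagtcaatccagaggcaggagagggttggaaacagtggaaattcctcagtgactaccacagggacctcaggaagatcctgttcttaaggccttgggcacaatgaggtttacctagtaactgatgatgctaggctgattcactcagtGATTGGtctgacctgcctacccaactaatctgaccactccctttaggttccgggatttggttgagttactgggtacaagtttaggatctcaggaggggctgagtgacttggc
H2-K1: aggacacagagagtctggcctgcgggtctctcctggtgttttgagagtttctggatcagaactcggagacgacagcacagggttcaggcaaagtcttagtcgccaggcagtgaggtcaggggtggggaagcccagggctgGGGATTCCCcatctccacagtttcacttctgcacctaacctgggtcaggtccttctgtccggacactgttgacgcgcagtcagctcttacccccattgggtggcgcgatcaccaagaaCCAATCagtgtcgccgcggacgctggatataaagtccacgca
H2-Eb1 and H2-Eb2 held the exact letters of both class II cores, whereas H2-Aa and H2-DMb1 held those of the Y box core only. Other forms of the X box were not searched, so its absence in H2-Aa and H2-DMb1 does not follow.

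Levels are given as CPM, the counts scaled to a common library total after TMM normalization, and levels of different genes only as CPM per kilobase of exon. By mean CPM per kilobase over the 16 libraries the order was B2m (2301), H2-K1 (537), H2-Q10 (449), H2-D1 (260), Cd74 (88.1) and H2-T23 (85.0). H2-Q10, a secreted class I molecule made by the liver, thus stood between both classical heavy chains. Of the class II chains, H2-Eb1 stood at 21.9, H2-Ab1 at 16.8 and H2-Aa at 13.9 CPM per kilobase, and the transactivators were far lower, Nlrc5 at 3.88 and Ciita at 0.351. The reading depth was 19039330 to 34459774 counts per library. Of the 41 members, 7 had no count in any library (H2-M1, H2-M9, H2-M10.1, H2-M10.2, H2-M10.3, H2-M10.4 and H2-M10.5), for which 3 counts in a library are the limit, 2 had at most 3 counts in all (H2-M10.6 and H2-M11), and 30 passed the filter on low counts and were tested. One tested member, H2-Ke6, carries the H2- name but is not an antigen presentation gene. Class I heavy chains are close copies of each other, and how reads that fit several copies were counted was not known here, which leaves the values of single H2-Q, H2-T, H2-K1 and H2-D1 genes uncertain.

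3 of the 1-month libraries stood apart from the other 13, the second control, the third of day 2 and the second of day 6. In this order, 2.39%, 3.52% and 2.18% of their counts fell on mitochondrial genes, against 3.82% to 5.28% elsewhere. Their summed CPM of H2-Aa, H2-Ab1, H2-Eb1 and Cd74, at 48.9, 68.4 and 75.9, were the 3 lowest of all libraries. These 3 were set by hand without a cutoff, and the class II sum is itself an outcome followed here.

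The first question was whether antigen presentation genes differed between the ages. Averaged over controls, day 2 and day 6, Cd74, H2-Aa, H2-Ab1, H2-Eb1, H2-Eb2, H2-DMa and H2-DMb1 were 2.37-fold to 4.24-fold higher at 6 months and the class II transactivator Ciita 4.59-fold, while B2m, H2-K1 and H2-D1 stood at 1.10-fold to 1.19-fold of their 1-month level, of which H2-D1 alone passed the test. Of the 30 tested members, 19 were higher and 0 lower at 6 months at an adjusted p under 0.1 (edgeR quasi-likelihood test, adjusted over 15684 genes), against 12.1% of all tested genes that were higher. By class, 9 of the 10 tested class II genes and 8 of the 17 class I genes were called higher, and the median log2 difference was 1.80 for class II and 0.18 for class I, against -0.01 over all genes. The remaining calls were both transactivators. Among the 19, H2-Eb2 passed the filter on low counts only through 6-month libraries, and H2-M2 and H2-Oa mostly through them. Their calls thus rest in part on a filter passed at the age where they are high. With no filter, H2-Eb2 and H2-M2 were still called and H2-Oa was not (edgeR adjusted p = 0.129).

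Cd74, the class II invariant chain, had 84 and 28.1 CPM in the 1-month controls, 55.7, 47.0 and 36.8 at day 2, and 91.6, 43.9 and 163 at day 6. At 6 months it had 194 and 263 CPM in controls, 295, 107 and 286 at day 2, and 139, 173 and 359 at day 6. Every 6-month library but the second of day 2 and the first of day 6 was above the highest 1-month library, the third of day 6. The age difference averaged over the 3 states was a log2 of 1.83 ± 0.33 (SE, n = 8 libraries per age), 3.56-fold, with an edgeR adjusted p of 0.00215. Without the 3 libraries it was 1.46, with an adjusted p of 0.0151.

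H2-Ab1, the beta chain of the class II molecule I-A, had 23.2 and 6.83 CPM in the 1-month controls, 17.1, 15.3 and 10.3 at day 2, and 28.6, 10.5 and 41.0 at day 6. At 6 months it had 54.9 and 90.8 CPM in controls, 76.5, 35.1 and 74.1 at day 2, and 46.2, 58.5 and 99.8 at day 6. Its log2 difference was 1.92 ± 0.32 (edgeR adjusted p = 0.00127). Its partner alpha chain H2-Aa (1.97 ± 0.33, edgeR adjusted p = 0.00134) and H2-Eb1, the beta chain of I-E (2.08 ± 0.35, edgeR adjusted p = 0.00125), had like differences. Without the 3 libraries the log2 differences were 1.51 for H2-Ab1, 1.57 for H2-Aa and 1.65 for H2-Eb1, with edgeR adjusted p of 0.00480, 0.00509 and 0.00512. For all 3 chains, the highest 1-month library overlapped the lowest 6-month library.

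The 7 genes Cd74, H2-Aa, H2-Ab1, H2-Eb1, H2-DMa, H2-DMb1 and Ciita moved in step between libraries. All 7 were highest in the third day 6 library at both ages, and at 6 months all 7 were lowest in the second day 2 library. At 1 month 5 of the 7 were lowest in the second control library, one of the 3 that stood apart.

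Ciita, the transactivator of class II genes, had 1.42 and 0.816 CPM in the 1-month controls, 1.20, 0.656 and 0.828 at day 2, and 2.06, 0.789 and 2.20 at day 6. At 6 months it had 3.88 and 6.54 CPM in controls, 6.57, 2.80 and 6.94 at day 2, and 5.03, 4.29 and 7.49 at day 6. All 8 libraries of 6 months were above all 8 of 1 month, but the share of all genes with such a separation was not counted. The log2 difference was 2.20 ± 0.27 (4.59-fold, edgeR adjusted p = 0.000126), and it was 1.95 without the 3 libraries.

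The peptide exchange genes differed in size. H2-DMb1, the beta chain of H2-DM, spanned 1.18 to 4.60 CPM at 1 month and 4.76 to 11.3 CPM at 6 months, with no overlap (log2 difference 1.77 ± 0.27, edgeR adjusted p = 0.000675). As for Ciita, the share of all genes with no overlap was not counted. H2-DMa, the alpha chain of H2-DM, was higher by 1.25 ± 0.23 (edgeR adjusted p = 0.00227), and the H2-O chains H2-Ob and H2-Oa by 0.68 ± 0.18 and 0.85 ± 0.31. Without the 3 libraries H2-DMb1 and H2-DMa were higher by 1.41 and 0.93 (edgeR adjusted p = 0.00512 and 0.0158). The H2-O calls were not kept without the 3 libraries (edgeR adjusted p = 0.105 and 0.296), and H2-Oa was also lost with leaving out any of 8 single libraries. H2-DMb2, the second beta chain gene, was the tested class II member that was not called (log2 difference 0.47 ± 0.26, edgeR adjusted p = 0.258).

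**Figure D1:**
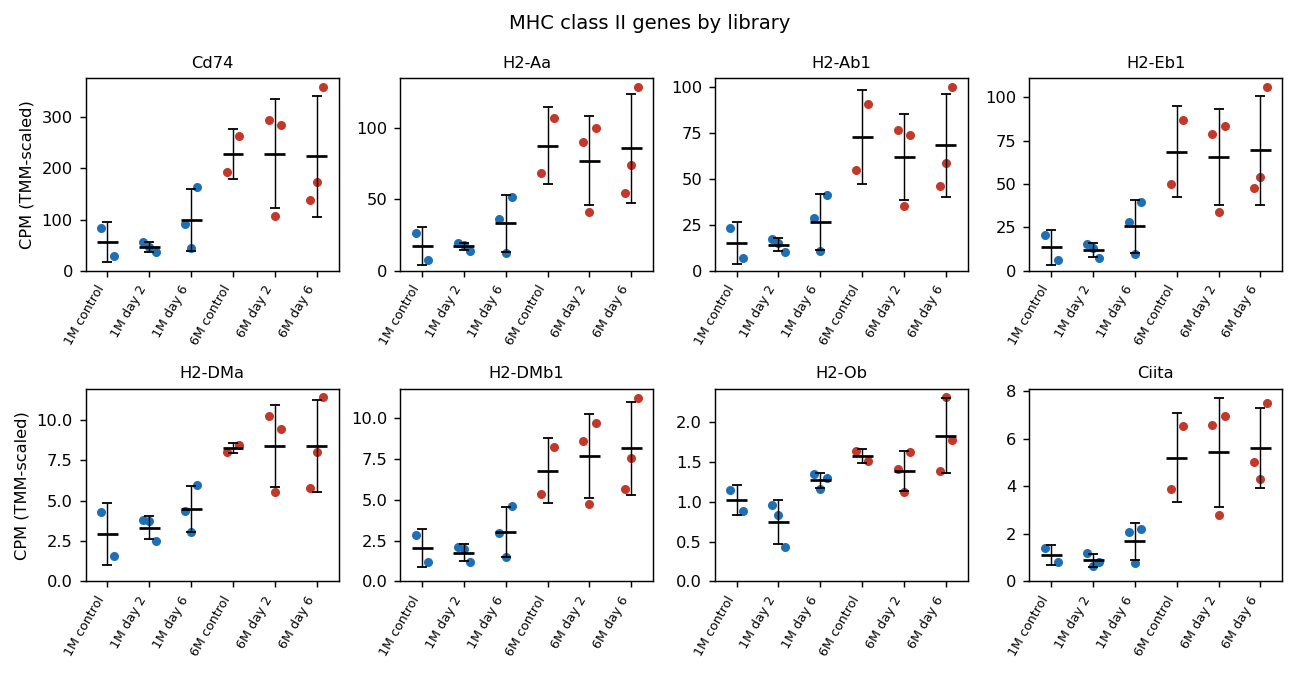
Each panel plots 1 class II gene or Ciita, with CPM (TMM-scaled) on the vertical axis and the 6 groups on the horizontal axis, points for libraries (blue 1 month, red 6 months), the bar for the mean and whiskers for the SD over 2 or 3 libraries. Ciita and H2-DMb1 show no overlap between the ages, narrowly for H2-DMb1 (4.60 against 4.76 CPM), and the share of all genes without overlap was not counted. The third 1-month day 6 library is the highest of its age for Cd74, H2-Aa, H2-Ab1, H2-Eb1, H2-DMa, H2-DMb1 and Ciita.

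H2-Eb2, a minor class II beta chain gene, rested on few reads, with 1 to 4 counts in each 1-month library and 3 to 14 in each 6-month library. It passed the filter on low counts only through 6-month libraries, the age where it is high. Over all states it was higher at 6 months by a log2 of 1.85 ± 0.31 (edgeR adjusted p = 0.00112), and the call was kept with no filter. In the controls the counts were 2 over the 1-month libraries and 24 over the 6-month libraries, a scaled ratio of 11.8 with an exact 95% interval of 2.92 to 103 that covers counting error only.

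Class I genes were more even between the ages. H2-K1, a classical heavy chain, had 1337 and 1482 CPM in the 1-month controls, 1236, 1481 and 1514 at day 2, and 1496, 1585 and 1984 at day 6, and at 6 months 1633 and 1818 in controls, 1685, 1412 and 1655 at day 2, and 1600, 1513 and 1795 at day 6. Its averaged log2 difference was 0.14 ± 0.09 (edgeR adjusted p = 0.343), and that of B2m was 0.18 ± 0.09 (edgeR adjusted p = 0.215). H2-D1, the other classical heavy chain, passed with 0.25 ± 0.09 (edgeR adjusted p = 0.0679), but not without the 3 libraries (adjusted p = 0.219) or without any of 12 single libraries. H2-Q10 (-0.04 ± 0.12, edgeR adjusted p = 0.857) and Tapbp (-0.17 ± 0.10, edgeR adjusted p = 0.284) were not called.

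Nlrc5, the transactivator of class I genes, had 25.7 and 27.8 CPM in the 1-month controls, 31.6, 16.6 and 19.7 at day 2, and 21.7, 26.8 and 29.3 at day 6, and at 6 months 30.2 and 40.8 in controls, 46.0, 37.3 and 40.0 at day 2, and 42.8, 36.2 and 54.3 at day 6. It was higher at 6 months by a log2 of 0.68 ± 0.14 (1.61-fold, edgeR adjusted p = 0.00422), and it was 0.67 without the 3 libraries. Only the first 6-month control lay inside the range of the 1-month libraries. The peptide transporter genes Tap1 (0.63 ± 0.17, edgeR adjusted p = 0.0239) and Tap2 (0.32 ± 0.09, edgeR adjusted p = 0.0246) were higher as well. Among non-classical heavy chains, H2-Q4 (0.46 ± 0.08, edgeR adjusted p = 0.00164) and H2-Q6 (0.48 ± 0.10, edgeR adjusted p = 0.00372) were higher, as were H2-M3 and H2-Q7 with smaller support.

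H2-M2, a non-classical class I gene, had the largest log2 difference, 3.86 ± 0.87 (edgeR adjusted p = 0.00862), on low and uneven counts. It had 2 and 0 counts in the 1-month controls, 0, 0 and 2 at day 2, and 19, 2 and 6 at day 6, and at 6 months 2 and 47 in controls, 140, 7 and 36 at day 2, and 14, 12 and 69 at day 6. The first 6-month control was thus as low as the 1-month libraries, and without the second control the call was lost (adjusted p = 0.226). At day 2 the scaled ratio was 76.7, with an exact 95% interval of 20.9 to 638 from 2 and 183 counts that covers counting error only.

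**Figure D2:**
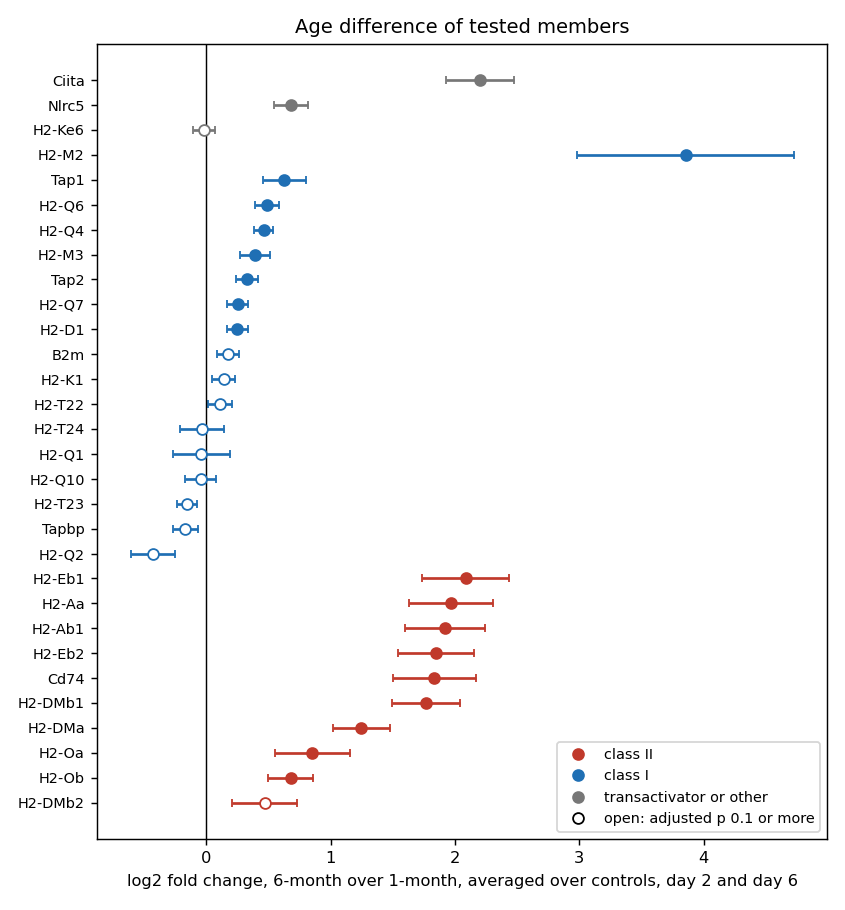
The horizontal axis gives the log2 fold change of 6 months over 1 month averaged over the 3 states, with points for the 30 tested members and whiskers for the SE (red class II, blue class I, grey transactivators and H2-Ke6, open points at an adjusted p of 0.1 or more). Class II genes lie between 0.47 and 2.08 and class I genes, apart from H2-M2 at 3.86, between -0.43 and 0.63.

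**Figure D3:**
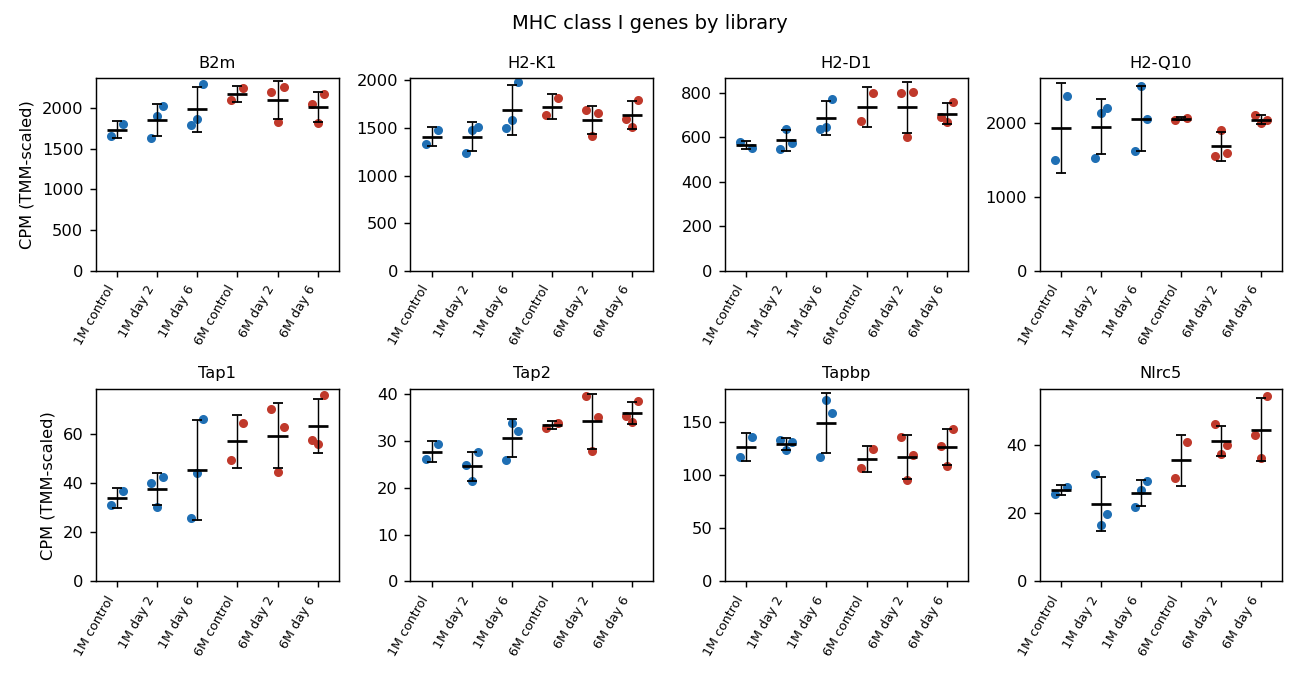
Each panel plots 1 class I gene, a loading gene or Nlrc5, with CPM (TMM-scaled) on the vertical axis and the 6 groups on the horizontal axis, points for libraries (blue 1 month, red 6 months), the bar for the mean and whiskers for the SD. B2m, H2-K1 and H2-Q10 overlap between the ages, while Nlrc5 and Tap1 sit higher in most 6-month libraries.

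Within the single states the counts were smaller. Between the untreated controls, 3 members were higher at 6 months (H2-Eb2, Ciita and H2-Q4) and 0 lower, against 1.61% of all tested genes that were higher. Of these, H2-Eb2 passed the filter on low counts only through 6-month libraries. H2-Aa, H2-Ab1, H2-Eb1 and Cd74 had log2 differences of 2.36, 2.28, 2.36 and 2.03 but adjusted p of 0.108, 0.108, 0.127 and 0.174. None of the 3 calls was kept without the 3 libraries or when the controls were fitted alone, and the count was 0 without the second 1-month control, 1 without either 6-month control and 6 without the second 1-month library of day 6. It was 10 with no filter on low counts and 9 with DESeq2, and both then called Cd74, H2-Aa, H2-Ab1, H2-Eb1, H2-DMa and H2-DMb1.

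At day 2, 11 members were higher and 0 lower, against 3.27% of all genes, and they were Ciita, H2-DMb1, H2-Eb1, Cd74, H2-Ab1, H2-Aa, H2-M2, Nlrc5, H2-DMa, H2-Q4 and Tap2. Of these, H2-M2 had 0, 0 and 2 counts in the 1-month libraries of day 2. It passed the filter on low counts mostly through 6-month libraries, the age where it is high, and was still called with no filter. Ciita was higher by a log2 of 2.62 ± 0.45 (edgeR adjusted p = 0.00547) and H2-DMb1 by 2.12 ± 0.44 (edgeR adjusted p = 0.0176), and these calls were kept when any single library was left out. The other class II calls were lost without the second or the third 1-month library of day 2, where the count was 2 each time, and all but that of H2-Eb1 without the first 6-month library of day 2. The count was 3 without the first or the third 6-month library of day 2. It was 7 without the 3 libraries that stood apart. Tap2 (0.47 ± 0.14) and H2-Q4 (0.44 ± 0.13) were lost with most single libraries.

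At day 6, 2 members were higher, Ciita (1.75 ± 0.42, edgeR adjusted p = 0.0493) and Nlrc5 (0.78 ± 0.22, edgeR adjusted p = 0.0900), and 0 lower, against 2.61% of all genes. H2-Ab1 differed by 1.35 ± 0.51 (edgeR adjusted p = 0.198) and Cd74 by 1.17 ± 0.52 (edgeR adjusted p = 0.291). Without the second 1-month or the third 6-month library of day 6 the count was 0, as it was without the 3 libraries that stood apart. It was 1 without the first 1-month library of day 6, either 6-month control, the first or the third 6-month library of day 2, or the second 6-month library of day 6. Nlrc5 kept its call in 3 of the 16 fits with a library left out and Ciita in 14, and with no filter on low counts the count was 8. The third 1-month library of day 6 had 51.4, 41.0 and 39.5 CPM of H2-Aa, H2-Ab1 and H2-Eb1. These values were below the lowest 6-month library of day 6 (54.4, 46.2 and 48.0 CPM). They were above the second 6-month library of day 2 (41.4, 35.1 and 33.8 CPM).

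The second question was whether DEN changed these genes. No member was called in either direction at day 2 or day 6 at either age, nor between the days, by edgeR or DESeq2, in any alternative. Of all tested genes, 0.0191% were called at day 2 and 0% at day 6 at 1 month, and 0.319% and 0.249% at 6 months. Between day 6 and day 2, 0.00638% were called at 1 month and 0.0128% at 6 months. Against controls the fit called 3 and 0 genes at day 2 and day 6 at 1 month, and 50 and 39 at 6 months. The study reported more genes for each of these by DESeq2 at the same adjusted p. The absence of member calls thus does not show that DEN left the members unchanged. At an unadjusted p under 0.05, 1 and 2 of the 30 members passed at day 2 and day 6 at 1 month (7.16% and 2.72% of all genes), 1 and 1 at 6 months (4.01% and 2.99%), and 4 and 1 between the days at 1 and 6 months (5.06% and 1.72%).

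Among 1-month livers at day 6, class II genes had positive differences throughout, with a median log2 of 0.83 over the 10 tested against -0.01 over all genes, but with adjusted p of 1 for each. Cd74 (0.83 ± 0.59), H2-Aa (0.96 ± 0.60) and Ciita (0.59 ± 0.51) had errors close to their differences, and the highest and lowest of their 3 day 6 libraries differed by 3.73-fold, 4.24-fold and 2.79-fold. Without the 3 libraries, which leaves 1 control at 1 month that is assumed to vary like the other groups, the class II median was 0.60, Cd74 differed by 0.60 ± 0.63 and H2-Aa by 0.72 ± 0.55. In 6-month livers the class II medians were -0.05 at day 2 and 0.00 at day 6. H2-K1 moved by 0.00 ± 0.16 and 0.26 ± 0.16 at 1 month and by -0.12 ± 0.16 and -0.08 ± 0.16 at 6 months.

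The members with the largest differences at an unadjusted p under 0.05 were as follows. H2-Q1, a non-classical class I gene, had 17.1 and 19.3 CPM in the 1-month controls, 7.13, 8.24 and 14.2 at day 2, and 5.32, 11.6 and 8.02 at day 6, all below the controls (log2 -0.88 ± 0.41 at day 2 with an edgeR adjusted p of 0.698, and -1.12 ± 0.41 at day 6 with an edgeR adjusted p of 1). At 6 months it differed from the controls by -0.20 ± 0.41 and -0.17 ± 0.41. The share of all genes with every 1-month DEN library below the 1-month controls was not counted. H2-Q2, another non-classical gene, differed by -0.71 ± 0.31 at day 6 at 1 month and by -0.81 ± 0.32 at day 6 at 6 months, with adjusted p of 1 by edgeR. H2-Eb2 differed by -1.48 ± 0.43 at day 2 at 6 months (edgeR adjusted p = 0.442), on 24 counts in controls. Between the days at 1 month, H2-Ob (0.76 ± 0.30), H2-Q7 (0.34 ± 0.13) and Tap2 (0.32 ± 0.14) were the largest, and at 6 months H2-Eb2 (1.05 ± 0.41).

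**Figure D4:**
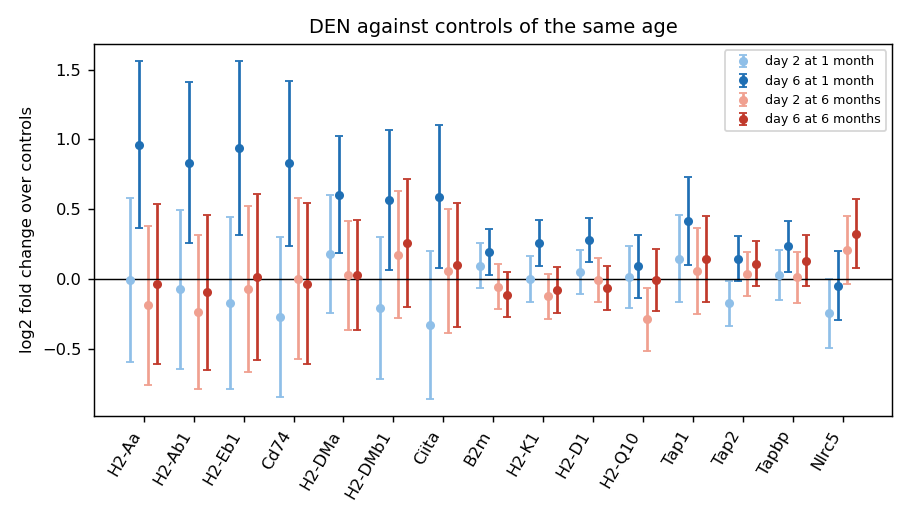
The vertical axis gives the log2 fold change of DEN-treated over control livers of the same age with its SE, for the 15 anchor members on the horizontal axis, in light and dark blue for day 2 and day 6 at 1 month and light and dark red for day 2 and day 6 at 6 months. No point was called, and the day 6 points at 1 month reach 0.96 for H2-Aa with an SE of 0.60.

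Whether the response to DEN differed between the ages was tested as an interaction. It gave 0 member calls at day 2 and day 6, with 0.00638% and 0.0128% of all genes called by edgeR, and 1 and 1 members at an unadjusted p under 0.05 (H2-Eb2 both times), against 4.46% and 1.91% of all genes. DESeq2 also gave 0 members. For H2-Ab1 the interaction was -0.16 ± 0.79 at day 2 and -0.93 ± 0.79 at day 6, so that a difference of this size was not detectable.

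Other genes of the pathways were read from lists, and 12.1% of all tested genes were higher and 10.5% lower in the same comparison. Averaged over the states, 4 of 12 tested genes for peptide loading and processing were higher at 6 months and 0 lower, namely Irf1 (an interferon-induced transcription factor, log2 0.81 ± 0.12), Psmb9 (0.94 ± 0.18) and Psmb8 (0.56 ± 0.16), which are immunoproteasome subunits, and Tapbpl (0.24 ± 0.08). Of 15 class II loading, regulator and co-stimulation genes, 3 were higher and 2 lower, with the cathepsin Ctss (0.83 ± 0.17), the lysosomal thiol reductase Ifi30 (0.39 ± 0.12) and Nfyb (0.48 ± 0.08), a Y box binding subunit, higher, and Ctsl (-0.38 ± 0.12) and Rfxap (-0.31 ± 0.11), a subunit of the X box complex, lower. Of 29 interferon response genes, 13 were higher and 4 lower. The 4 with the smallest p included both directions, Ifi44 (-0.81 ± 0.13) lower and Socs1 (1.59 ± 0.26), Tgtp1 (2.05 ± 0.42) and Irgm2 (0.89 ± 0.18) higher. Ifit3, Isg15 and Ifngr1 were the other lower members. Without the 3 libraries the counts were 3, 4 and 11 higher and 0, 0 and 4 lower in these lists.

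Markers of leukocytes, which include the cells that carry class II, were higher at 6 months in part. All 5 pan-leukocyte genes were higher at 6 months in the averaged comparison (Ptprc by 1.05 ± 0.20), and their summed level spanned 143 to 203 CPM in the 1-month and 196 to 300 CPM in the 6-month libraries. Lcp1 was the largest part of this sum, with a median of 113 CPM at 1 month and 149 CPM at 6 months. Of 7 tested dendritic cell markers 4 were higher and 0 lower, with Itgax at 2.41 ± 0.29, and their sum spanned 9.89 to 16.8 CPM at 1 month and 15.5 to 26.5 CPM at 6 months. Itgax had the largest change in this sum, from a median of 1.38 to 7.17 CPM, against 5.94 to 6.36 CPM for Zbtb46. Of 8 Kupffer cell and macrophage markers 4 were higher, with Marco at 1.16 ± 0.24, and the sum ran from 388 to 643 CPM and from 416 to 781 CPM. Of 7 tested B and plasma cell markers 3 were higher, with Jchain at 1.18 ± 0.16, and the sum ran from 5.27 to 7.14 CPM and from 7.75 to 12.3 CPM, with Ighm at 0 in every library. Of 6 tested T and NK cell markers 4 were higher, with Cd8a at 2.77 ± 0.31, and their sum ran from 3.32 to 5.47 CPM and from 5.35 to 16 CPM. Not every marker rose. Log2 differences were positive for 7 of 8 Kupffer and macrophage, 6 of 7 dendritic, 7 of 7 B and plasma and 5 of 6 T and NK markers. Median CPM went from 135 at 1 month to 125 at 6 months for Clec4f, from 3.93 to 3.45 for Clec9a and from 0.604 to 0.439 for Klrb1c. Hepatocyte markers were lower for 3 of 8 and sinusoidal endothelium markers for 5 of 8, and none was higher in these lists. Of the other lists, 2 of 6 stellate cell markers and 1 of 4 tested neutrophil markers were higher, and 1 of 7 cholangiocyte markers was lower. Median log2 differences follow with all libraries and then without the 3 libraries, which leaves 1 control at 1 month. They were 0.80 and 0.63 for pan-leukocyte, 0.59 and 0.45 for dendritic, and 0.35 and 0.15 for Kupffer and macrophage markers. For B and plasma markers they were 0.47 and 0.69, for T and NK 1.48 and 1.64, and for hepatocyte -0.34 and -0.19. For sinusoidal endothelium they were -0.37 and -0.49, for stellate 0.30 and 0.23, for neutrophil 0.56 and 0.66, and for cholangiocyte 0.10 and 0.29. In bulk liver, more cells of a type and more RNA per cell cannot be told apart, and the part of these cells in the class II result was not tested.

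**Figure D5:**
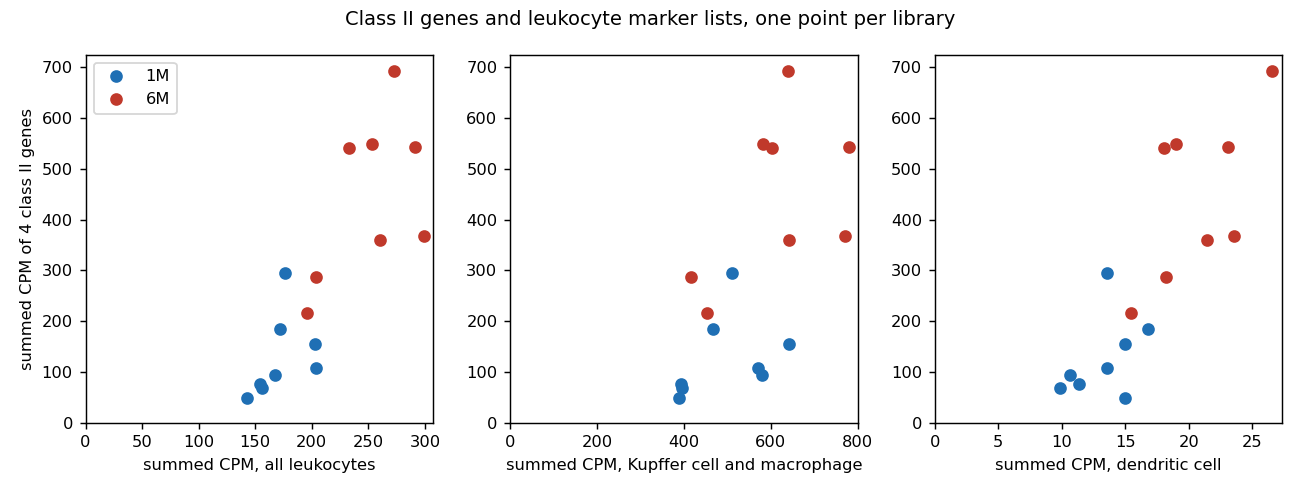
Each point is 1 library (blue 1 month, red 6 months), with the summed CPM of H2-Aa, H2-Ab1, H2-Eb1 and Cd74 on the vertical axis and the summed CPM of the pan-leukocyte, the Kupffer cell and macrophage and the dendritic cell marker list on the horizontal axes. The class II sum spans 48.9 to 295 CPM in the 1-month and 217 to 692 CPM in the 6-month libraries, and both pan-leukocyte and dendritic sums overlap between the ages. Genes of high CPM weigh most in each sum, such as Lcp1 in the pan-leukocyte sum.

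Within the 6-month libraries the class II sum moved with depth. The 4 libraries of lowest total (19039330 to 25272265 counts) had sums of 217 to 367 CPM, and the 4 of highest total (28071029 to 34459774 counts) had 540 to 692 CPM, without overlap. At 1 month the ranges were 68.4 to 185 CPM in the 4 lowest and 48.9 to 295 CPM in the 4 highest libraries. The part of depth in the level was not tested.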

How the data were processed

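RNA-seq was done on 16 liver libraries, and reads had been aligned by the authors to GRCm38 with TopHat2 2.0.13, with the gene counts deposited as raw read counts. The submitters' processing notes also list Cufflinks 2.2.1, Cuffnorm and DESeq2 1.10.1 without their roles, and which program made the raw counts, and whether it used strand, was not known here. The deposited table's own comparisons (fold changes, p-values) and 16 columns of normalized counts were not used. Counts of all genes entered one edgeR 4.0.16 fit (R 4.3.3) of 6 groups with TMM scaling and filterByExpr, leaving 15684 genes, with Benjamini-Hochberg adjustment over all of them and calls at an adjusted p under 0.1, as in the study. The common biological coefficient of variation was 0.218. SE is the log2 fold change over the square root of the F statistic. Same-numbered libraries were not treated as paired in the main fit. Of 36 pairs with equal numbers 16 had deviations correlated over 0.1 (range -0.30 to 0.59). Pairs with unequal numbers were not correlated for comparison, so these values cannot decide whether libraries were paired. Alternatives were RLE scaling, no filter, a replicate block, only the groups compared, DESeq2 1.42.0, leaving out 3 libraries together and leaving out each library. The members named in the text were the anchors of each role, the called members (the 12 of smallest p first), the 3 largest at an unadjusted p under 0.05 where none was called, and up to 4 genes per list. Members, lists and the rule were chosen with earlier results of these data known.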

Additional observations from a re-analysis of the deposited data

How the results depend on the processing

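No count of members called in the averaged age comparison left 1.5 times its value of 19 under any of the alternatives, which gave 14 to 19, and none of the 8 other comparisons of DEN, days or interaction gave a call under any of them. H2-Q2 was called lower in the averaged comparison without the 3 libraries (log2 -0.55) and without the second 1-month control (log2 -0.57). Between controls the 3 calls became 10 with no filter on low counts, 9 with the replicate block, 9 with DESeq2, 0 with only the groups compared and 0 without the 3 libraries, and 0 to 6 when single libraries were left out. At day 2 the 11 calls became 7 with only the groups compared and 7 without the 3 libraries, and 2 to 12 when single libraries were left out. At day 6 the 2 calls became 8 with no filter and 0 without the 3 libraries, and 0 to 3 when single libraries were left out. The cause was not tested. At day 6 the replicate block lost Nlrc5 (adjusted p = 0.102) and gained H2-DMb1, and it left the calls at day 2 and in the averaged comparison as they were. The 35 called pairs of member and comparison were refitted 749 times in all (560 with a library left out, 189 under another alternative), of which 612 kept the call, 137 lost it and 0 turned the direction, and 15 pairs kept it in every refit. The averaged comparison has no version with only the groups compared, since it uses all 6. Counts were low for H2-Eb2, for H2-M2, where they were also uneven within groups, and for the other H2-M genes except H2-M3.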
